A study of Homo sapiens with 54 samples.

Results

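The PI3K, AKT and mTOR genes described here are 8 of the 27978 genes counted in MDA-MB-231, a cell line long established from a human breast tumour. They were taken by name, not by their values: PIK3CA, PIK3CB and PIK3CD, which encode catalytic subunits of phosphoinositide 3-kinase (PI3K), PIK3R1 and PIK3R2, which encode its regulatory subunits, the kinases AKT1 and AKT2, and the kinase MTOR. RNA was sequenced in 54 libraries, 3 for each of 18 groups, which the series text calls biological replicates. Cells were untreated (UT), or received Compound Kushen Injection (CKI), an extract of Kushen and Baituling roots, at 2 mg/ml, or mixtures of its components at the equivalent of that dose. In the group names, N stands for all the compounds of CKI. N_2 is CKI from which oxymatrine (Omt) and oxysophocarpine (Ospc) were removed, and N_3 is CKI from which macrozamin (Mac) was removed as well. OO holds Omt and Ospc alone, and MOO holds Mac, Omt and Ospc alone. N_Mac, N_Nme, N_Omt and N_Tri are CKI from which macrozamin, N-methylcytisine (Nme), oxymatrine or trifolirhizin (Tri) was removed. UT, CKI, N_2, N_3, OO and MOO were sampled at 24 h and at 48 h in batch 1, and UT, CKI and the 4 removals of single compounds at 48 h in batch 2. Every group is the same line, so that the values describe this line only.

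Growth factor receptors recruit PI3K to the membrane through its regulatory subunits, and the catalytic subunits then phosphorylate a membrane lipid. This lipid brings AKT kinases to the membrane, where they are activated, and AKT signaling releases mTOR from the TSC brake, which favours protein synthesis and growth. The pathway is often activated in breast cancer, PIK3CA being one of its most often mutated genes, and these kinases are regulated largely after translation, so that RNA levels do not measure pathway activity.

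Libraries held 17673537 to 26138924 counts, with a median of 22568666.5, and the 8 genes had 132 to 9598 counts each in every library. VIM, CD44 and KRT18 were present in all 54 libraries, the lowest at 77.1 counts per 1000000 (CPM, after TMM scaling over all libraries, the unit of all levels here). The hormone receptors ESR1 and PGR reached at most 8 and 2 counts, the leukocyte genes PTPRC and CD3E at most 10 and 4, and the fibroblast gene DCN at most 17. Other markers of the list had more counts. The fibroblast genes LUM and COL3A1 reached 177 and 90, LUM with at least 17 in every library, and the endothelial gene PECAM1 reached 122. CDH1 and EPCAM, listed as low or absent in this line, reached 162 and 679, EPCAM with at least 150 in every library. CKI replicate 1, N_3 replicate 2 and OO replicate 2, all at 24 h, stood apart from their groups, in the direction of the difference between batch 2 and batch 1. In their labels the group name carries no number of its own. PIK3R2, the gene among the 8 that differed most between untreated cells of both batches, was at 215 CPM in that CKI library against 333 and 347 in the others, and at 253 CPM in that OO library against 364 and 384. In that N_3 library the gap was smaller, 188 CPM against 210 and 225. Not all of the 8 genes followed the batch difference. AKT1 and MTOR, both lower in untreated cells of batch 2, were higher in that N_3 library, at 211 CPM against 168 and 183 and at 43.7 against 32.9 and 37.2.

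Differences are log2 fold changes from edgeR's quasi-likelihood test, given with the standard error (SE), and a gene was called where p, adjusted by the Benjamini-Hochberg method across every gene in the fit, lay under 0.05. All comparisons of 1 time and batch share 3 untreated libraries, so they are not independent of each other. In bulk RNA, fewer cells of a kind and less RNA per cell cannot be told apart. With N_2 at 24 h the median difference of all genes from untreated cells was -0.32 without TMM scaling, so its values are relative to the genes as a whole. Levels of GC-rich and GC-poor genes also shifted against each other in some groups. Across genes, the correlation of transcript GC content with the difference from untreated cells was -0.297 with N_Nme, -0.236 with N_Tri and -0.231 with N_Mac, while it was 0.199 with N_2 at 48 h and 0.189 at 24 h. In the other groups it lay between -0.195 (OO at 24 h) and 0.0834 (N_3 at 24 h). The GC content of the 8 genes was 34.8% for PIK3CA, 39.4% for PIK3CB, 40.3% for PIK3R1, 52.2% for MTOR, 57.9% for PIK3CD, 58.3% for AKT2, 58.9% for AKT1 and 64.2% for PIK3R2. A fit with the GC trend removed was therefore added after the data had been seen. Of the 224 values of the 8 genes against untreated cells or CKI, 181 kept their call or lack of one in it, 8 lost a call and 21 gained one. Another 14 changed sign with a call in at least 1 of both fits. Values that changed sign with no call in either fit count among the 181. Not all of these changes are named below.

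After 24 h of CKI, 1 of the 8 genes, PIK3CD, was called, against 38.7% of the 14245 genes tested. The libraries of 6 of the 8 genes did not overlap between CKI and untreated cells, against 54.3% of genes. At an unadjusted p under 0.05 there were 5 of the 8 genes, against 7005 of all 14245. Without CKI replicate 1 there were 4 called ones, when 7636 of 14410 genes were called. PIK3CA, PIK3CB, PIK3R1 and AKT1 were called as well once the GC trend was removed (adjusted p 0.0066 to 0.0454). After 48 h of CKI in both batches, 6 of the 8 genes were called, against 71.5% of 14351 genes: PIK3CB, PIK3CD and PIK3R1 were higher (35.7% of genes) and PIK3CA, AKT1 and AKT2 lower (35.8%). In batch 1 alone 6 were called (62.5% of all genes) and in batch 2 alone 7 (68.4%). All 6 of both batches kept their call when any 1 of the 12 libraries was left out. The exact permutation test within batches gave its smallest possible p, 0.005, for PIK3CA, PIK3CB, PIK3CD, PIK3R1 and AKT2, 0.01 for AKT1, 0.11 for PIK3R2 and 0.5 for MTOR (two-sided, 400 permutations). The CKI effect did not pass edgeR's test for a difference between the batches for any of the 8 genes, against 13.8% of all genes. At an unadjusted p under 0.05 there was 1 of the 8 (4149 of 14858 genes), and with DESeq2 there were 0 (2073 genes).

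Of the tests of the 8 genes in the 12 comparisons of a mixture with untreated cells, 66 of 96 (68.8%) were calls, 29 higher and 37 lower, against 61.3% of all tests. The share of all tests in each direction is not given here. At 24 h the numbers of the 8 genes called were 3 with N_2 (66.8% of all genes), 5 with N_3 (45.9%), 2 with OO (16.5%) and 2 with MOO (35.8%). Without N_2 replicate 3, 7 were called with N_2 and 11060 of 14566 genes, PIK3CA (0.24, adjusted p = 0.0373), PIK3CB (0.50, adjusted p = 0.000103), PIK3CD (0.33, adjusted p = 0.0162) and PIK3R2 (0.23, adjusted p = 0.00936) being the ones added. At 48 h in batch 1 they were 7 with N_2 (80.4%), 6 with N_3 (64.7%), 6 with OO (67.8%) and 5 with MOO (60.5%). In batch 2 they were 7 with N_Mac (72.6%), 7 with N_Nme (69.5%), 8 with N_Omt (79.6%) and 8 with N_Tri (74.3%). Without the OO and N_3 libraries that stood apart there were 65 calls in place of 66. These shares lay on both sides of those of all genes, and what follows is which genes moved and in which direction.

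**Figure D1:**
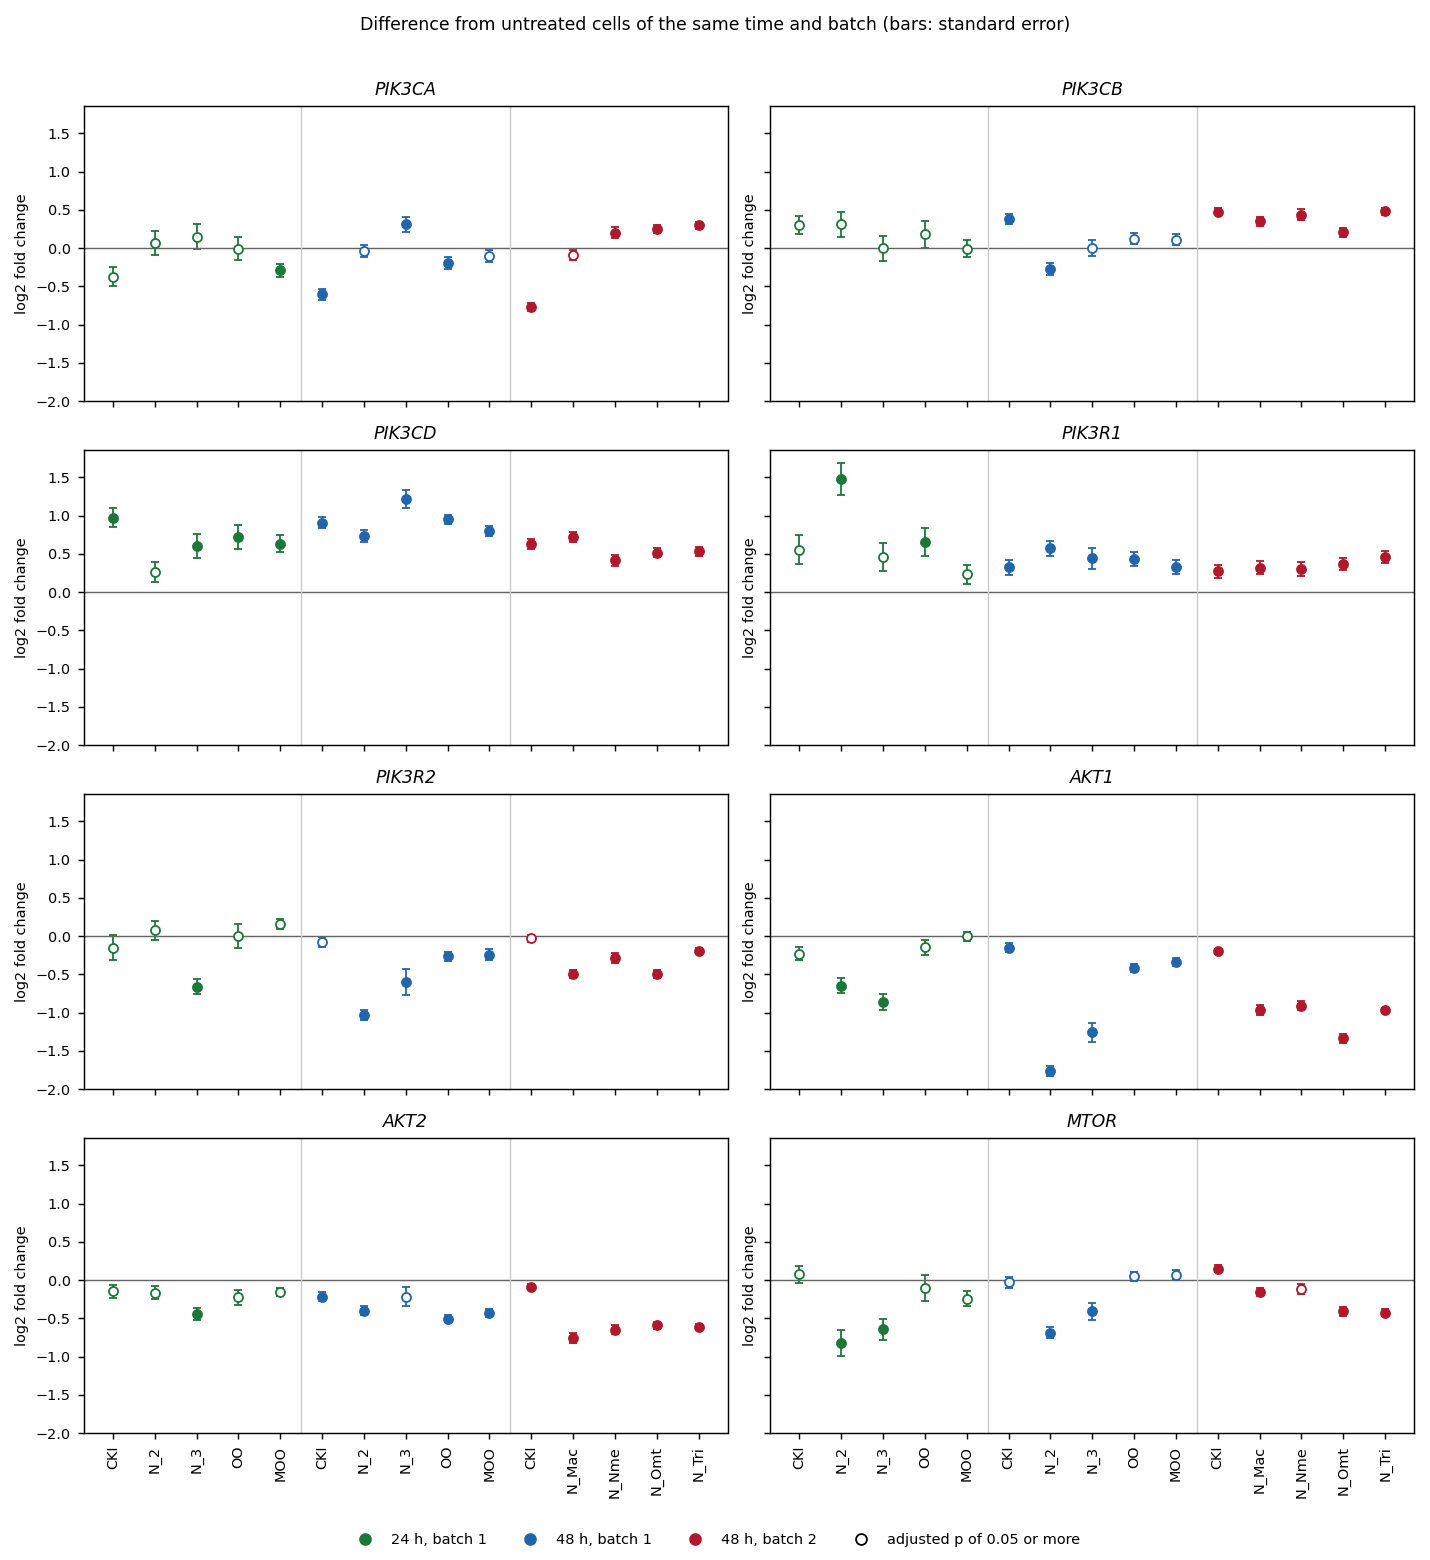
Log2 fold change (vertical axis) of each of the 8 genes in the 15 treated groups against untreated cells of the same time and batch (horizontal axis), with bars for the standard error; filled points passed an adjusted p of 0.05 and open points did not. PIK3CD lies above 0 in all 15 groups, PIK3R1 above 0 in all 15, and AKT1 at or below 0 in all 15, while PIK3CA lies on either side of 0.

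Per base of transcript, AKT1 had the highest level of the 8 genes in untreated cells and PIK3R1 the lowest. The median of the 9 untreated libraries, in CPM per kilobase of transcript, was 109 for AKT1, 81.6 for PIK3R2, 41.8 for AKT2, 6.68 for MTOR, 5.65 for PIK3CB, 4.72 for PIK3CD, 3.43 for PIK3CA and 1.63 for PIK3R1. Of the regulatory subunits, PIK3R2 was therefore far above PIK3R1, and the catalytic subunits lay close together, with PIK3CA between 2.83 and 4.82 and PIK3CD between 3.58 and 5.54 CPM per kilobase. Transcript lengths came from a reference that is not the build of the counts. All levels below are CPM and are compared between groups only.

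**Figure D2:**
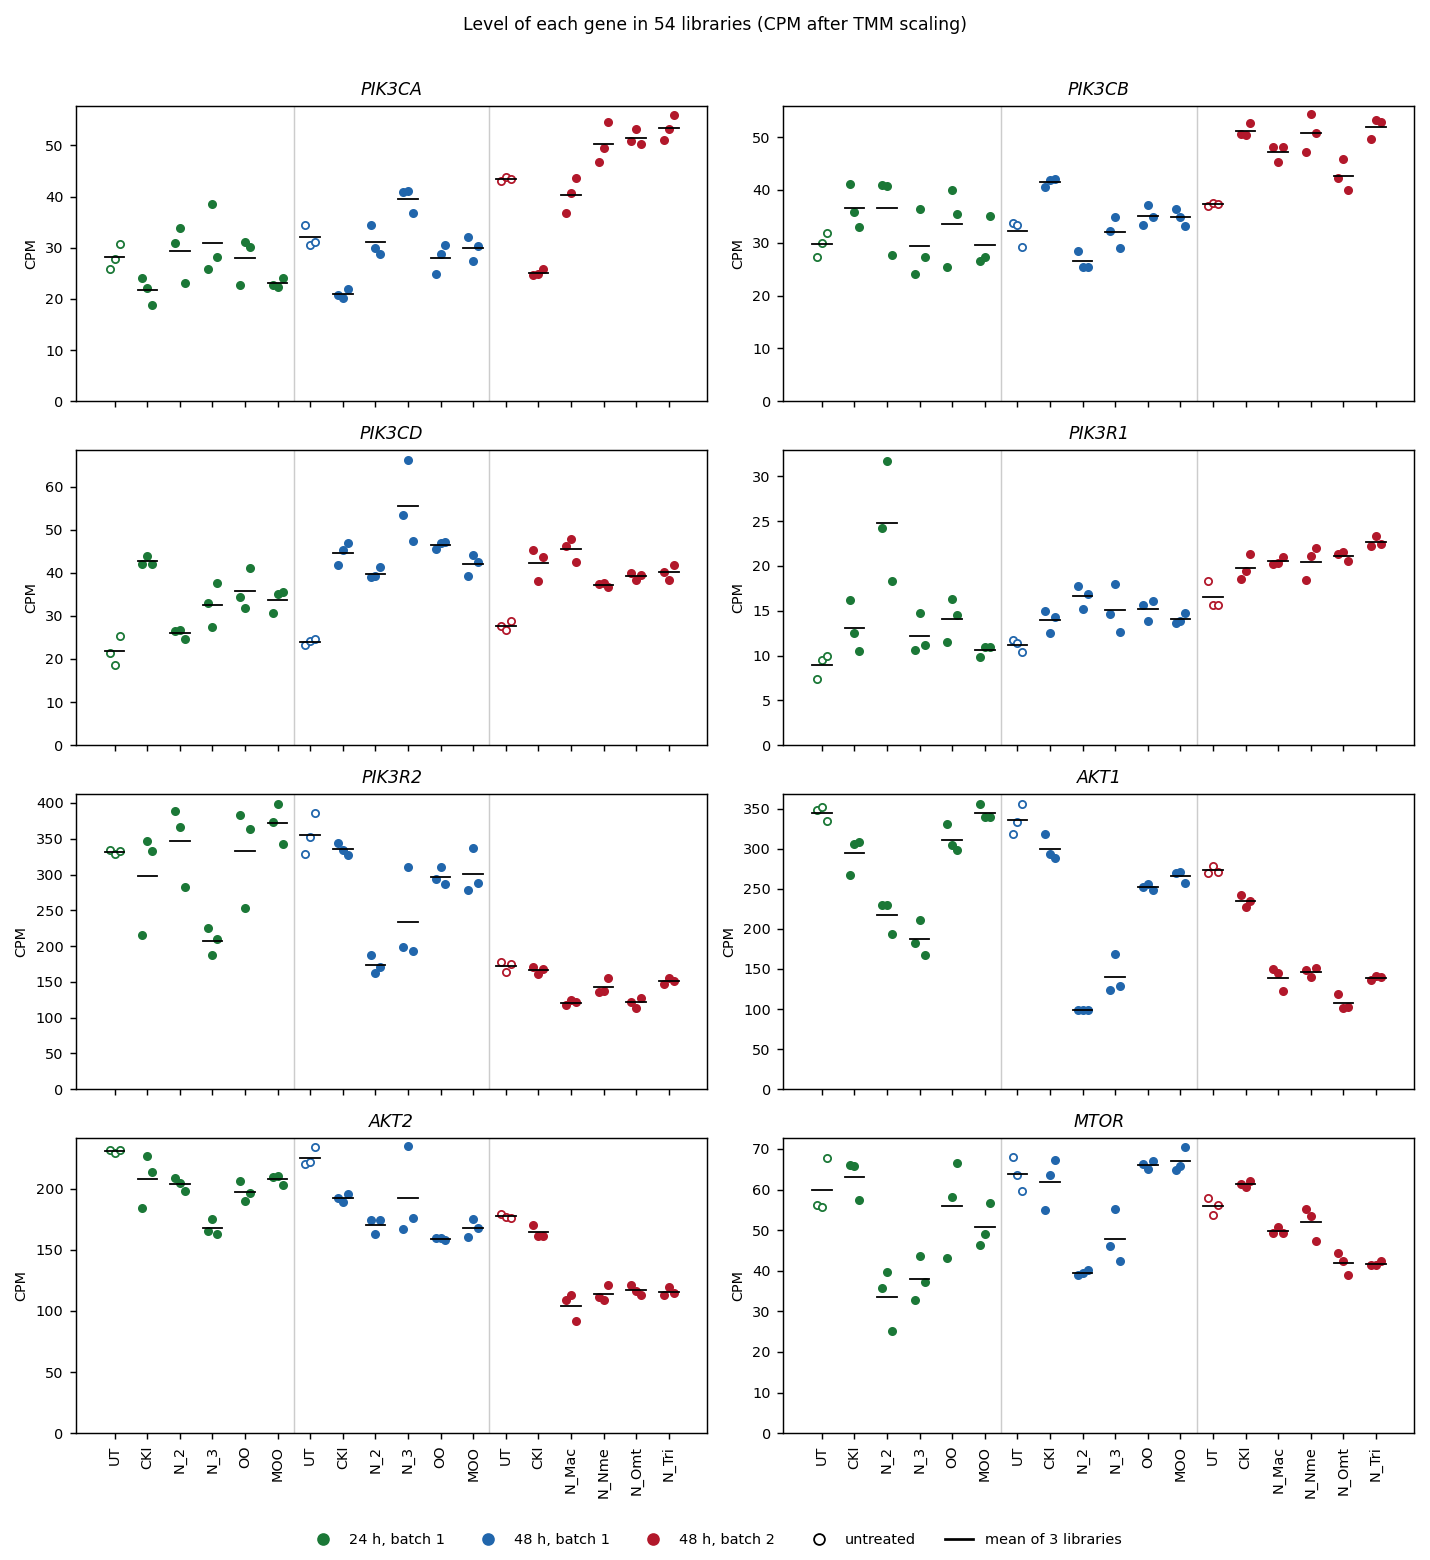
Level in CPM (vertical axis, from 0) of each of the 8 genes in all 54 libraries, by group (horizontal axis); each point is 1 library, open points are untreated, colours are the time and batch, and lines are means of 3 libraries. PIK3R2 in untreated cells of batch 2, at 164 to 178 CPM, lies below that of batch 1, and PIK3CA lies lowest with CKI.

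PIK3CA encodes the alpha catalytic subunit, which acts in nearly all tissues. It was lower with CKI and, in batch 2, higher than untreated with 3 of the 4 single removals, at the same dose equivalent. At 48 h in batch 1 the 3 untreated libraries had 34.4, 30.5 and 31.2 CPM and the CKI libraries 20.8, 20.3 and 21.8, and in batch 2 untreated libraries had 43.0, 43.9 and 43.4 and CKI libraries 24.6, 25.0 and 25.8. Every CKI library was below every untreated library of its batch. The difference was -0.60 (SE 0.074, adjusted p = 1.24e-06) in batch 1 and -0.77 (SE 0.051, adjusted p = 3.63e-08) in batch 2. At 24 h the untreated libraries had 25.7, 27.8 and 30.8 CPM and the CKI libraries 24.1, 22.1 and 18.8. These did not overlap, but the difference of -0.37 (SE 0.13, adjusted p = 0.0509) missed the threshold and was called, at -0.46, without CKI replicate 1 (adjusted p = 0.00355).

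In N_Omt libraries PIK3CA had 50.9, 53.2 and 50.3 CPM, in N_Tri libraries 51.1, 53.2 and 55.9, in N_Nme libraries 46.7, 49.5 and 54.6 and in N_Mac libraries 36.7, 40.7 and 43.6. The first 3 groups lay wholly above untreated cells of batch 2, and N_Mac overlapped them. Differences from untreated cells were 0.26 with N_Omt (SE 0.052, adjusted p = 0.00034), 0.30 with N_Tri (adjusted p = 0.000115) and 0.20 with N_Nme (adjusted p = 0.0166). The N_Nme call was lost without untreated replicate 1 (adjusted p = 0.0723) or N_Nme replicate 3 (adjusted p = 0.078). With all 54 libraries in 1 fit N_Nme and N_Omt missed the threshold (adjusted p = 0.122 and 0.0613). With the GC trend removed, N_Omt stayed at 0.27, but N_Nme and N_Tri were both at -0.07, and N_Mac was called lower at -0.24 (adjusted p = 0.00198). Against CKI of batch 2, PIK3CA was higher in all 4 removals, by 0.69 (N_Mac) to 1.08 (N_Tri), with the largest adjusted p at 5.23e-11, and called in all 4 with the GC trend removed as well, at 0.53 (N_Mac) to 1.02 (N_Omt).

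In batch 1 at 48 h PIK3CA was also higher than with CKI in all 4 mixtures, by 0.42 with OO, 0.50 with MOO, 0.57 with N_2 and 0.93 with N_3 (largest adjusted p 6.24e-05). These 4 comparisons share the CKI libraries. N_3 libraries had 40.9, 41.2 and 36.7 CPM, above all untreated libraries, a difference of 0.31 (SE 0.097, adjusted p = 0.0148) that was lost without untreated replicate 2 (adjusted p = 0.0902) or 3 (adjusted p = 0.0699). Calls of -0.19 with OO at 48 h (adjusted p = 0.0339) and -0.29 with MOO at 24 h (adjusted p = 0.0238) each depended on single libraries. The OO call was lost without untreated replicate 1 or OO replicate 1 or 2 (adjusted p 0.0562 to 0.219), and the MOO call without untreated replicate 2 or 3 or MOO replicate 1 or 2 (0.0527 to 0.0973). Over the 15 treated groups PIK3CA was called lower in 4 and higher in 4, where 48.8% of 13552 genes were called lower in at least 4 and 47.3% higher in at least 4. Of the 17 neighbouring pairs in the order of its 18 group means, 14 overlapped, the exceptions being MOO at 24 h below CKI of batch 2, untreated cells of batch 1 at 48 h below N_3, and untreated cells of batch 2 below N_Nme. Such orders, here and for the other genes, run across times and batches, so a pair can differ in these as well as in treatment. KCNMB3 overlaps PIK3CA on the other strand, and the strand setting of the counting is not given in the sources used here.

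The 250 bases before the PIK3CA start are shown because it was the member whose direction differed most between mixtures. They come from RefSeq on GRCh38.p14, chr3:179148107-179148356, plus strand, with motif matches in capitals.
PIK3CA: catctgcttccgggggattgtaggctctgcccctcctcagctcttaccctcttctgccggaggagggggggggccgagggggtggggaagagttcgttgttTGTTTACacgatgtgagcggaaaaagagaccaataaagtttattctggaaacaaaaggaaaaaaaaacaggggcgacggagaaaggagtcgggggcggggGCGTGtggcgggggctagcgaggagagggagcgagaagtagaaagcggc
All 8 genes matched the RefSeq promoter table, and 4 motifs were searched on both strands: CACGTG (E-box), GTAAACA (FOXO site), GCGTG (core site of the aryl hydrocarbon receptor) and TGACTCA (AP-1 site). PIK3CA held GTAAACA once, on the minus strand and so printed as TGTTTAC, and GCGTG once. Of 35116 promoters of this length, 2.98% held GTAAACA, 32.2% GCGTG, 6.34% CACGTG and 4.2% TGACTCA. A match describes the letters only and is not evidence of binding.

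PIK3CB, the beta catalytic subunit, is known to respond to G protein-coupled receptors as well. It was higher with CKI at 48 h and with each single removal in batch 2. Untreated libraries at 48 h had 33.8, 33.4 and 29.2 CPM in batch 1 and 37.0, 37.4 and 37.2 in batch 2, and CKI libraries had 40.6, 41.8 and 42.0 and 50.5, 50.5 and 52.6. No CKI library overlapped untreated cells of its batch, with differences of 0.38 (SE 0.069, adjusted p = 0.000118) and 0.48 (SE 0.047, adjusted p = 1.36e-06). In batch 2 the range was 45.2 to 48.1 CPM with N_Mac, 47.2 to 54.4 with N_Nme, 39.96 to 45.8 with N_Omt and 49.6 to 53.2 with N_Tri. All 12 of these libraries were above the untreated ones, by 0.21 (N_Omt, adjusted p = 0.00548) to 0.48 (N_Tri, adjusted p = 1.46e-06). The N_Omt call was made in 8 of 9 other settings.

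N_2 at 48 h was the exception, at 28.5, 25.5 and 25.4 CPM, below every untreated library (-0.28, SE 0.080, adjusted p = 0.00317). With the GC trend removed this call was lost (-0.09, adjusted p = 0.231). PIK3CB was thus called higher in 6 of the 15 treated groups and lower in 1, where 35.4% of genes were called higher in at least 6 and 73.5% lower in at least 1. Against CKI it was lower in all 4 mixtures of batch 1 at 48 h, from -0.65 with N_2 to -0.24 with OO (largest adjusted p 0.00609), and in batch 2 it was called lower with N_Omt (-0.25, SE 0.052, adjusted p = 2.26e-05). N_Mac, at -0.11 against CKI (adjusted p = 0.0579), was called without N_Mac replicate 1 (adjusted p = 0.0497) or 3 (0.0479). PIK3CB was called lower than with CKI in all 4 removals when the GC trend was removed, at -0.30 (N_Mac) to -0.38 (N_Omt). Of its 17 neighbouring pairs of groups 16 overlapped, the exception being untreated cells of batch 2 below CKI of batch 1.

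PIK3CD, the delta catalytic subunit, is best known from leukocytes, and the leukocyte gene PTPRC reached at most 10 counts in these libraries. Of the 8 genes it was the one called in the most treated groups. At 24 h untreated libraries had 21.4, 18.6 and 25.3 CPM and CKI libraries 42.1, 44.0 and 42.1. At 48 h in batch 1 the values were 23.3, 24.2 and 24.6 untreated and 41.8, 45.3 and 47.0 with CKI, and in batch 2 27.6, 26.7 and 28.8 and 45.3, 38.2 and 43.6. CKI libraries were above all untreated libraries in each set. The differences were 0.97 (SE 0.12, adjusted p = 0.000909) at 24 h, 0.91 (SE 0.070, adjusted p = 2.86e-09) at 48 h in batch 1 and 0.63 (SE 0.067, adjusted p = 2.8e-06) in batch 2.

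With mixtures at 48 h in batch 1, PIK3CD was at 53.3, 66.2 and 47.3 CPM with N_3, 45.5, 47.0 and 47.2 with OO, 39.3, 44.1 and 42.6 with MOO and 39.0, 39.3 and 41.3 with N_2. All 12 libraries were above the untreated ones, N_3 with the largest difference of the 15 treated groups (1.22, SE 0.12, adjusted p = 6.93e-06). In batch 2 the differences were 0.73 with N_Mac, 0.41 with N_Nme, 0.51 with N_Omt and 0.53 with N_Tri (largest adjusted p 4.84e-05). At 24 h they were 0.72 with OO, 0.63 with MOO and 0.60 with N_3, all called, and 0.27 with N_2 (adjusted p = 0.1). PIK3CD was called higher in 14 of the 15 treated groups, a number that 4.35% of genes reached, and lower in none. Of these 14 calls all held with the GC trend removed and 12 held without any 1 library. The N_3 call at 24 h was lost without untreated replicate 1 or 2 or N_3 replicate 3 (adjusted p 0.075 to 0.085), and the OO call at 24 h without untreated replicate 1 or 2 or OO replicate 3 (0.0758 to 0.104).

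Counts of PIK3CD per count of PIK3CA, which need no scaling between libraries but set a GC-rich gene against a GC-poor one, went from 0.774 ± 0.0903 (SD, n = 3) in untreated cells to 1.99 ± 0.251 with CKI at 24 h, from 0.753 ± 0.0651 to 2.13 ± 0.118 at 48 h in batch 1 and from 0.639 ± 0.0274 to 1.69 ± 0.156 in batch 2. With the single removals the ratio was 1.14 ± 0.145 for N_Mac, 0.744 ± 0.0661 for N_Nme, 0.765 ± 0.0374 for N_Omt and 0.752 ± 0.0335 for N_Tri. As counted, the ratio was highest with CKI in each set. Without the GC trend the differences from untreated cells were 0.72 for PIK3CD and -0.07 for PIK3CA with N_Nme, 0.67 and 0.27 with N_Omt and 0.81 and -0.07 with N_Tri. Against CKI itself PIK3CD was called lower with N_Nme (-0.19, adjusted p = 0.0145), a call lost without CKI replicate 1 (adjusted p = 0.0958) or 3 (0.069) and at 0.14 with the GC trend removed. Among its neighbouring groups 14 of 17 pairs overlapped, the exceptions being N_2 at 24 h below untreated cells of batch 2, N_Nme below N_Omt, and OO at 48 h below N_3. CLSTN1, PIK3CD-AS1 and PIK3CD-AS2 overlap PIK3CD on the other strand, and PIK3CDP1 is a pseudogene copy by name, so reads shared with them cannot be told apart here.

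PIK3R1, the alpha regulatory subunit, binds the catalytic subunits, stabilises them and restrains them until a receptor is engaged. It had the lowest counts of the 8 genes and was higher in most treated groups. At 48 h untreated libraries had 11.8, 11.4 and 10.4 CPM in batch 1 and 18.3, 15.6 and 15.6 in batch 2, and CKI libraries 15.0, 12.5 and 14.3 and 18.6, 19.4 and 21.3. CKI libraries were above the untreated ones of their batch, by narrow margins, with differences of 0.33 (SE 0.097, adjusted p = 0.00728) and 0.28 (SE 0.084, adjusted p = 0.011). The call in batch 2 alone was lost without CKI replicate 3 (adjusted p = 0.0667). The largest difference was with N_2 at 24 h, where the libraries had 24.2, 31.7 and 18.3 CPM against 7.41, 9.47 and 9.91 in untreated cells, all above them (1.48, SE 0.21, adjusted p = 0.000309). At 48 h N_2 libraries had 17.8, 15.2 and 16.9 CPM, a difference of 0.57 (SE 0.097, adjusted p = 1.1e-05).

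PIK3R1 was called higher in 12 of the 15 treated groups, a number that 9.56% of genes reached, and lower in none. Of these 12 calls 9 held without any 1 library, those lost being CKI in batch 2 (above), N_3 at 48 h without untreated replicate 3 (adjusted p = 0.0768), and OO at 24 h without any of 5 of its 6 libraries (0.0695 to 0.168). With the GC trend removed 9 held, and N_Mac, N_Nme and N_Tri fell short (adjusted p 0.0613 to 0.725). With all 54 libraries in 1 fit CKI at 48 h in each batch and MOO at 48 h were lost too (adjusted p 0.0668 to 0.137), and OO at 24 h with library sizes alone (0.0507), so that 5 of the 12 held under every setting with all their libraries. CKI at 24 h, with 16.2, 12.6 and 10.5 CPM, lay wholly above untreated cells and missed the threshold (0.56, SE 0.19, adjusted p = 0.0517); it was called at 0.37 without CKI replicate 1 (adjusted p = 0.0457) and at 0.69 without CKI replicate 3 (adjusted p = 0.0213). Against CKI at 48 h PIK3R1 was called higher with N_2 (0.26) and N_Tri (0.19). The first was lost without CKI replicate 2 (adjusted p = 0.128) or N_2 replicate 1 (0.0698), and the second without CKI replicate 1 (0.0593), and it was at -0.13 with the GC trend removed. Of its neighbouring groups 15 of 17 pairs overlapped, the exceptions being N_2 at 48 h below CKI of batch 2 and N_Omt below N_Tri.

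PIK3R2, the beta regulatory subunit, was lower with the mixtures at 48 h and not with CKI. Untreated libraries at 48 h had 329, 353 and 386 CPM in batch 1 and 178, 164 and 175 in batch 2, and CKI libraries 344, 334 and 327 and 170.5, 162 and 168. CKI and untreated libraries overlapped in both batches, and the difference over both was -0.05 (SE 0.042, adjusted p = 0.255), which does not show that the levels were equal; with the GC trend removed it was called at -0.11 (adjusted p = 0.00353). With N_2 at 48 h the libraries had 187, 162 and 171 CPM, all below untreated cells (-1.03, SE 0.068, adjusted p = 2.85e-12). With N_3 at 48 h they had 198, 310.02 and 192 CPM, where replicate 2 lay far above the other libraries but still below untreated cells (-0.60, SE 0.17, adjusted p = 0.00775). N_3 at 24 h, with 225, 188 and 209.6 CPM against 335, 328 and 333 untreated, was lower as well (-0.66, SE 0.096, adjusted p = 0.00176), while N_2 at 24 h, with 389, 366 and 283 CPM, overlapped untreated cells (0.08, SE 0.13, adjusted p = 0.612). Without N_2 replicate 3, the lowest, the difference was called at 0.23 (adjusted p = 0.00936).

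In batch 2 the single removals held 118, 124 and 122 CPM (N_Mac), 136, 137 and 156 (N_Nme), 122, 113 and 128 (N_Omt) and 147, 155 and 151 (N_Tri), all below the untreated libraries. The differences were -0.50, -0.28, -0.50 and -0.19 in that order (largest adjusted p 0.00133). PIK3R2 has the highest GC content of the 8 genes, and with the GC trend removed N_Omt remained called while N_Mac was at -0.02, N_Nme at 0.11 and N_Tri at 0.05. Over the 15 treated groups PIK3R2 was called lower in 9 and higher in none, where 23.7% of genes were called lower in at least 9, and 5 of the 9 calls held with the GC trend removed. OO at 48 h was lost with all 54 libraries in 1 fit (adjusted p = 0.114). The call with MOO at 48 h was lost without MOO replicate 1 (adjusted p = 0.0665), and the other 8 held without any 1 library. Of its neighbouring groups 14 of 17 pairs overlapped, the exceptions being N_Omt below N_Nme, N_Tri below CKI of batch 2, and N_2 at 48 h below N_3 at 24 h. AC007192.1 overlaps PIK3R2 on the same strand.

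AKT1, the kinase that PI3K lipids recruit most broadly, had the largest fall of the 8 genes. At 48 h in batch 1 untreated libraries had 319, 334 and 356 CPM, N_2 libraries 99.1, 98.3 and 98.9 and N_3 libraries 124, 168 and 128. The N_2 and N_3 libraries were all below the untreated ones, with differences of -1.76 (SE 0.062, adjusted p = 3.98e-17) and -1.26 (SE 0.12, adjusted p = 6.19e-06). OO libraries had 252, 256 and 249 CPM and MOO libraries 270.2, 271 and 257, also below untreated cells but nearer to them, with differences of -0.42 (adjusted p = 5.77e-07) and -0.34 (adjusted p = 7.09e-05). CKI libraries had 319, 293 and 289 CPM and touched the untreated range (-0.15, SE 0.059, adjusted p = 0.0311). That call was lost without untreated replicate 2 or 3 or CKI replicate 2 or 3 (adjusted p 0.0757 to 0.16), and 5 of 9 other settings gave it. At 24 h the pattern among mixtures was alike in kind, with N_2 at -0.65 and N_3 at -0.86 called lower and OO at -0.15 and MOO at -0.002 not called.

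In batch 2 untreated libraries had 269.9, 279 and 271 CPM and CKI libraries 242, 227 and 235, all of them lower (-0.20, SE 0.038, adjusted p = 0.000449). Removing 1 compound went with a further drop, to 119, 102 and 102 CPM with N_Omt, 137, 141 and 139.97 with N_Tri, 149, 145 and 122 with N_Mac and 148, 139 and 152 with N_Nme. All 12 libraries were below both untreated and CKI libraries, and those of N_Omt were below those of the other 3 removals. Against untreated cells the differences were -1.33 with N_Omt, -0.97 with N_Tri, -0.97 with N_Mac and -0.91 with N_Nme (largest adjusted p 4.09e-09). Against CKI they were -1.11, -0.76, -0.75 and -0.69 in the same order (largest adjusted p 5.93e-10). Removal of the GC trend gave -1.15, -0.69, -0.72 and -0.58 against untreated cells, and -0.88, -0.43, -0.46 and -0.33 against CKI. AKT1 was called lower in 12 of the 15 treated groups, a number that 12.3% of genes reached, and all 12 calls held with the GC trend removed. Of its neighbouring groups 12 of 17 pairs overlapped, fewest of the 8 genes. Those apart included N_2 at 48 h in batch 1 below N_Omt in batch 2, and N_Omt below N_Mac within batch 2.

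Over the 18 groups, the level of AKT1 went most closely with that of PIK3R2 among the pairs of the 8 genes (Pearson's r = 0.886 of mean log2 CPM, centred on the mean of the 6 groups of each time and batch). The GC trend was not removed from these levels, and PIK3R2 and AKT1 have the highest transcript GC contents of the 8 genes, 64.2% and 58.9%. The 250 bases before their starts, from RefSeq on GRCh38.p14, are shown because of this r. The AKT1 start is the first of a pair listed, at chr14:104795749-104795998 on the minus strand, and that of PIK3R2 is at chr19:18152913-18153162 on the plus strand. Capitals mark motif matches.
AKT1: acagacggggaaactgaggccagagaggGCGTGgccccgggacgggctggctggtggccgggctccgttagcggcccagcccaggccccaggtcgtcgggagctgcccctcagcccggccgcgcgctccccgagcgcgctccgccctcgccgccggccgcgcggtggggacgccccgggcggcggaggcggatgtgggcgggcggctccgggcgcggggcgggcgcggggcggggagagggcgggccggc
PIK3R2: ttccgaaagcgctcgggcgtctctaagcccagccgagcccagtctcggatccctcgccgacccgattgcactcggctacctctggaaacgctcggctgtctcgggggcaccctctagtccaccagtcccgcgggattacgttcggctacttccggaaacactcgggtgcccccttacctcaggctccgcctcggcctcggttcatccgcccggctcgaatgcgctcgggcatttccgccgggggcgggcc
AKT1 held GCGTG once in this window and PIK3R2 held none of the 4 motifs. Their GC contents were 83.2% and 67.6%, against a median of 58% over all promoters.

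AKT2, the AKT kinase known for its part in insulin-driven glucose uptake, was lower with most treatments at 48 h. In batch 1 untreated libraries had 220.1, 222 and 234 CPM, CKI libraries 192, 189 and 195, OO libraries 160.02, 159 and 158, MOO libraries 161, 175 and 168 and N_2 libraries 174, 163 and 174. All of these treated libraries were below the untreated ones. The differences were -0.50 (SE 0.048, adjusted p = 2.05e-08) with OO, -0.43 with MOO, -0.40 with N_2 and -0.22 (SE 0.053, adjusted p = 0.00171) with CKI. N_3 had 167, 235 and 176 CPM, where replicate 2 was above every untreated library, and its difference of -0.22 (SE 0.13, adjusted p = 0.148) became -0.38 without that library (adjusted p = 0.000242). As counted, the pair of OO and MOO was therefore at least as low as N_2 for AKT2, unlike for AKT1, where N_2 was far lower. This difference in order was not tested. Over all settings that kept every library the AKT2 difference ran from -0.49 to -0.33 with N_2. It ran from -0.51 to -0.40 with OO and from -0.43 to -0.33 with MOO, so these ranges overlap.

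In batch 2 untreated libraries had 179, 177 and 176 CPM and CKI libraries 170.2, 161 and 161 (-0.09, SE 0.038, adjusted p = 0.0462), a call lost without untreated replicate 1 (adjusted p = 0.127) or CKI replicate 2 (0.142) or 3 (0.162). With all libraries kept, only 2 of 9 other settings gave this call. The single removals were at 109, 113 and 92.0 CPM with N_Mac, 112, 109 and 121 with N_Nme, 121, 116 and 113 with N_Omt and 113, 119 and 115 with N_Tri. These libraries were all far below untreated and CKI libraries, and the 4 groups overlapped each other in order of their means. Against untreated cells they differed by -0.59 (N_Omt) to -0.75 (N_Mac), and against CKI by -0.48 to -0.65 (largest adjusted p 3.06e-08). AKT2 with the GC trend removed was at -0.33 (N_Nme and N_Tri) to -0.53 (N_Mac) against untreated cells and at -0.19 (N_Nme and N_Tri) to -0.38 (N_Mac) against CKI. AKT2 was called lower in 10 of the 15 treated groups, where 19.7% of genes were called lower in at least 10, and all 10 calls held with the GC trend removed. At 24 h only N_3 of the 5 treatments was called (-0.44, SE 0.079, adjusted p = 0.00413), although the libraries of all 5 lay below the untreated ones. MIR641 and AC118344.1 overlap AKT2 on the same strand.

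MTOR encodes the kinase at the core of both mTOR complexes. It was lower with N_2 and N_3 at both times, and with 3 of the 4 single removals. At 24 h untreated libraries had 56.1, 55.8 and 67.8 CPM, N_2 libraries 35.6, 39.8 and 25.2 and N_3 libraries 32.9, 43.7 and 37.2. At 48 h in batch 1 the values were 68.1, 63.5 and 59.5 untreated, 39.0, 39.3 and 40.3 with N_2 and 46.1, 55.3 and 42.4 with N_3. Neither mixture overlapped untreated cells at either time. The differences were -0.82 (SE 0.17, adjusted p = 0.00251) and -0.64 (SE 0.14, adjusted p = 0.00785) at 24 h, and -0.69 (SE 0.069, adjusted p = 4.35e-09) and -0.41 (SE 0.11, adjusted p = 0.00749) at 48 h. OO and MOO at 48 h overlapped untreated cells, at 0.05 (adjusted p = 0.449) and 0.07 (adjusted p = 0.364).

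In batch 2 untreated libraries had 57.9, 53.8 and 56.1 CPM, N_Tri libraries 41.4, 41.3 and 42.3, N_Omt libraries 44.2, 42.3 and 38.8, N_Mac libraries 49.2, 50.8 and 49.4 and N_Nme libraries 55.1, 53.4 and 47.4. The first 3 removals lay below untreated cells and N_Nme overlapped them. Differences were -0.43 (SE 0.048, adjusted p = 4.02e-06), -0.41 (SE 0.059, adjusted p = 1.22e-05) and -0.16 (SE 0.055, adjusted p = 0.0177) for these 3. The N_Mac call was lost without untreated replicate 1 (adjusted p = 0.0858) and was made in 7 of 9 other settings. CKI libraries of batch 2 had 61.3, 60.6 and 62.0 CPM, above the untreated ones (0.15, SE 0.046, adjusted p = 0.0106), while those of batch 1, with 54.9, 63.7 and 67.3 CPM, overlapped them. The call in batch 2 was made in 8 of 9 other settings. Over both batches the difference with CKI was 0.06 (SE 0.056, adjusted p = 0.351), and without CKI replicate 1 of batch 1 it was called at 0.11 (adjusted p = 0.0397). MTOR was called lower in 7 of the 15 treated groups and higher in 1, where 32.7% of genes were called lower in at least 7 and 72.2% higher in at least 1. ANGPTL7 and MTOR-AS1 overlap MTOR on the other strand.

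**Figure D3:**
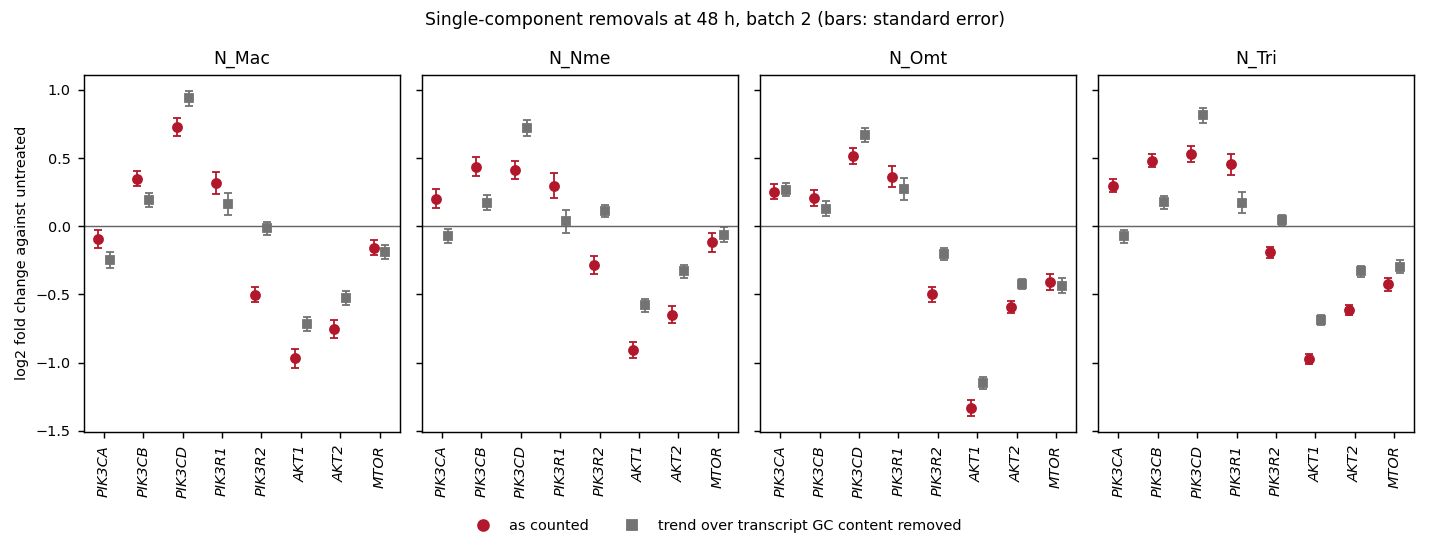
Log2 fold change against untreated cells (vertical axis) of the 8 genes (horizontal axis) for CKI lacking 1 compound at 48 h in batch 2, 1 panel per removed compound, as counted (circles) and with the trend over transcript GC content removed (squares); bars are standard errors. AKT1 and AKT2 lie below 0 in all 4 panels in both forms, and PIK3CA and PIK3R2 change sign between the forms with N_Nme and N_Tri.

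Each mixture was next set against CKI of its time and batch. No group received CKI that had been taken apart and put together again. The absence of a compound therefore cannot be told apart from the preparation of the mixtures. Of the 96 tests of the 8 genes 54 (56.2%) were calls, 12 higher and 42 lower, against 55.1% of all tests. Shares of all tests by direction are not given here, so the split of these calls does not describe the 8 genes in particular. At 24 h there were 4 with N_2 (54% of all genes), 2 with N_3 (23.1%), 1 with MOO (16%) and 0 with OO (2.32%). With OO there were also 0 at an unadjusted p under 0.05 (2636 of 14232 genes) and 0 with DESeq2 (1123 genes). The MOO call, PIK3CD at -0.35 (adjusted p = 0.0489), was lost without any of 5 of its 6 libraries (adjusted p 0.0808 to 0.171). At 48 h there were 8 with N_2 (77.8%), 6 with N_3 (60.5%), 5 with OO (64.6%), 5 with MOO (57.9%), 5 with N_Mac (72.8%) and 6 each with N_Nme (72.7%), N_Omt (80.5%) and N_Tri (77.1%). All 4 single removals were higher than CKI for PIK3CA and lower for PIK3R2, AKT1, AKT2 and MTOR. For MTOR the difference was -0.25 (N_Nme) to -0.57 (N_Tri, largest adjusted p of the 4 0.00188), and for PIK3R2 -0.15 (N_Tri) to -0.45 (N_Mac). With the GC trend removed PIK3R2 turned to 0.09 with N_Mac, 0.21 with N_Nme and 0.16 with N_Tri.

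Macrozamin could be compared as present or absent within both kinds of mixture. Between MOO and OO none of the 8 genes was called by edgeR at 24 h, when no gene of 14211 was (0%). None was called at 48 h, when 9.72% of genes were. At an unadjusted p under 0.05 there was 1 of the 8 at 24 h (569 of 14211 genes) and 1 at 48 h (3294 of 14421). With DESeq2 there were 0 of the 8 at 24 h (0 genes) and 0 at 48 h (1166 genes). The intervals leave room for differences: for AKT1 the 95% interval of the difference was -0.12 to 0.42 at 24 h and -0.05 to 0.19 at 48 h, and for PIK3CD it was -0.46 to 0.29 and -0.31 to -0.002. They take only the residual degrees of freedom of the fit, to which edgeR's test adds, so they are wider than that test implies. PIK3CA and PIK3R1 at 24 h became calls without OO replicate 1 (-0.41 and -0.55, adjusted p = 0.0397 and 0.0342), when 2184 of 14453 genes were called in place of none, and PIK3CD at 48 h without MOO replicate 2 (-0.19, adjusted p = 0.0135). Between N_2, which keeps macrozamin, and N_3, 2 of the 8 genes were called at 24 h (36.7% of all genes) and 3 at 48 h (39.2%). At 24 h PIK3R1 was 1.01 higher (adjusted p = 0.0133) and PIK3R2 0.72 higher with N_2 (adjusted p = 0.0107), the latter lost without N_2 replicate 1 (0.0594). At 48 h the N_2 minus N_3 difference was -0.48 (SE 0.12, adjusted p = 0.00909) for PIK3CD, -0.50 (SE 0.12, adjusted p = 0.00634) for AKT1 and -0.35 (SE 0.10, adjusted p = 0.0194) for PIK3CA. The last was lost without N_2 replicate 2 or 3 or N_3 replicate 1 (adjusted p 0.064 to 0.102). With the GC trend removed the calls for PIK3R2 at 24 h and PIK3CA at 48 h were lost, and PIK3CB and PIK3CD at 24 h and PIK3R2 and MTOR at 48 h were called, as was PIK3CD between MOO and OO at 48 h (adjusted p 0.00228 to 0.0449 for these 5).

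The effect of a treatment at 48 h was tested against its effect at 24 h in batch 1. By edgeR 0 of the 8 genes differed with CKI (1.56% of all genes), 0 with N_3 (3.54%) and 0 with OO (11.9%). At an unadjusted p under 0.05 there were 0 with CKI (2664 of 14834 genes), 1 with N_3 (2866 of 14953) and 2 with OO (4007 of 14812). With DESeq2 there were 0 with CKI (847 genes), 0 with N_3 (1129) and 2 with OO (2373). By edgeR 5 of the 8 differed with N_2 (41% of all genes) and 3 with MOO (21%). The N_2 effect on AKT1 went from -0.65 to -1.76, a difference of -1.10 (SE 0.12, adjusted p = 1.54e-05), and that on PIK3R2 from 0.08 to -1.03 (-1.10, SE 0.16, adjusted p = 0.000135). Both were thus lower at 48 h, whereas the N_2 effect on PIK3R1 was smaller at 48 h (-0.89, SE 0.24, adjusted p = 0.00982). The MOO effect on AKT1 differed by -0.33 (SE 0.077, adjusted p = 0.00638).

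Untreated cells alone also differed between sets. At 48 h 7 of the 8 genes were called between batch 2 and batch 1 (58.8% of all genes), the largest difference being -1.09 (SE 0.066, adjusted p = 4.17e-08) for PIK3R2. PIK3R1 (0.52), PIK3CA (0.40) and PIK3CB (0.17) were higher in batch 2, and AKT2 (-0.39), AKT1 (-0.34) and MTOR (-0.23) lower. With the GC trend removed PIK3CA was at 0.05 and AKT1 at -0.05, neither called, AKT2 was at -0.12, PIK3R1 at 0.27 and PIK3R2 at -0.48, and PIK3CD was called at 0.41. The MTOR call was lost with library sizes alone (adjusted p = 0.0601) and with all 54 libraries in 1 fit (adjusted p = 0.208). The PIK3CB call (adjusted p = 0.0494) was lost without any of 5 of the 6 libraries (adjusted p 0.0603 to 0.197) and was at -0.09 with the GC trend removed. Mixtures of batch 1 and batch 2 were therefore tested only against controls of their own batch, while the orders of group means above run across batches. Between 48 and 24 h in batch 1, 0 of the 8 genes were called by edgeR in untreated cells (25.2% of all genes). At an unadjusted p under 0.05 there were 2 of the 8 (5340 of 14187 genes), and with DESeq2 there were 0 (3353 genes).

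A list of 48 other genes of the pathway was read from the same fits. With CKI, 15 of 44 tested genes (34.1%) were called at 24 h, 12 higher and 3 lower, against 38.7% of all genes. At 48 h 32 of 44 (72.7%) were called, 19 higher and 13 lower, against 71.5%. These shares are near those of all genes, while the share of all genes in each direction at 24 h is not given here. Single genes follow. Of the PI3K relatives, 3 of 6 tested were called at each time, all 3 higher (in batch 1 alone at 48 h 4 were higher and 1 lower), among them PIK3C2B, a class II PI3K, which went from 8.23, 10.5 and 8.52 to 27.5, 23.8 and 27.2 CPM in batch 2 (1.14, SE 0.13, adjusted p = 2.81e-07 over both batches). Among the 7 phosphatases tested at 48 h 3 were higher and 2 lower, with INPP4A at 0.63 and INPP4B, which removes another phosphate of PI3K lipids, at -0.69 (both adjusted p under 0.05). PDPK1, which activates AKT, was at 0.24 (SE 0.065, adjusted p = 0.00308).

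In the mTOR complexes 3 of 8 genes were higher and 3 lower with CKI at 48 h. RICTOR, the scaffold of mTOR complex 2, had 61.1, 57.3 and 62.1 CPM in untreated and 95.5, 96.2 and 93.7 in CKI libraries of batch 2 (0.61, SE 0.058, adjusted p = 4.43e-08), and PRR5L, a partner of that complex, 29.0, 31.1 and 21.9 and 14.5, 12.2 and 13.8 (-1.03, SE 0.077, adjusted p = 1.89e-09). RPTOR, the scaffold of complex 1, was at 0.23 (SE 0.043, adjusted p = 0.000154). Among the stress brakes SESN3, a sestrin that restrains mTOR complex 1, had 8.04, 9.55 and 7.11 CPM untreated and 29.1, 26.5 and 28.9 with CKI (1.57, SE 0.098, adjusted p = 1.81e-10), and it was higher at 24 h too (1.99, adjusted p = 0.00319). SESN2, its relative, was called higher at 24 h (0.44, adjusted p = 0.0452), a call lost without CKI replicate 2 or any 1 of the untreated libraries (adjusted p 0.0598 to 0.138), and lower at 48 h (-0.55). Downstream, FOXO4, a factor that AKT keeps out of the nucleus, went from 17.1, 16.4 and 16.2 to 39.4, 38.8 and 35.3 CPM (1.20, SE 0.047, adjusted p = 6.01e-13), and SGK1, a kinase that mTOR complex 2 activates, from 26.2, 25.1 and 29.6 to 8.31, 8.42 and 7.92 (-1.35, SE 0.095, adjusted p = 9.09e-10). Both were called in these directions at 24 h too, with SGK1 at -1.17 (SE 0.23, adjusted p = 0.00618).

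The TSC brake and its partners had 2 of 4 genes higher and 1 lower at 48 h: TSC1 was at 0.28 (SE 0.044, adjusted p = 2.21e-05), and TSC2, its partner in the brake, at 0.07 (adjusted p = 0.143). ULK1, the kinase that starts autophagy and that mTOR complex 1 restrains, was higher by 0.57 (SE 0.040, adjusted p = 1.09e-09). The other genes of the list with a large difference had few counts. TBC1D7, the small subunit of the TSC brake, had 5 to 14 counts per untreated library and 14 to 27 with CKI at 48 h (1.28, SE 0.26, adjusted p = 0.000287), DEPTOR, an inhibitor of mTOR, 4 to 22 and 21 to 41 (1.17, SE 0.27, adjusted p = 0.000979), and INPP5D, a lipid phosphatase of leukocytes, 5 to 15 and 13 to 34 (1.11, SE 0.25, adjusted p = 0.000685). INPP5D in batch 1 alone was not called (adjusted p = 0.138). SGK3, a relative of SGK1, had 14 to 24 counts untreated and 7 to 8 with CKI at 24 h (-1.31, SE 0.42, adjusted p = 0.039), a call lost without untreated replicate 1 or 3 or CKI replicate 2 or 3 (adjusted p 0.0622 to 0.126).

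**Figure D4:**
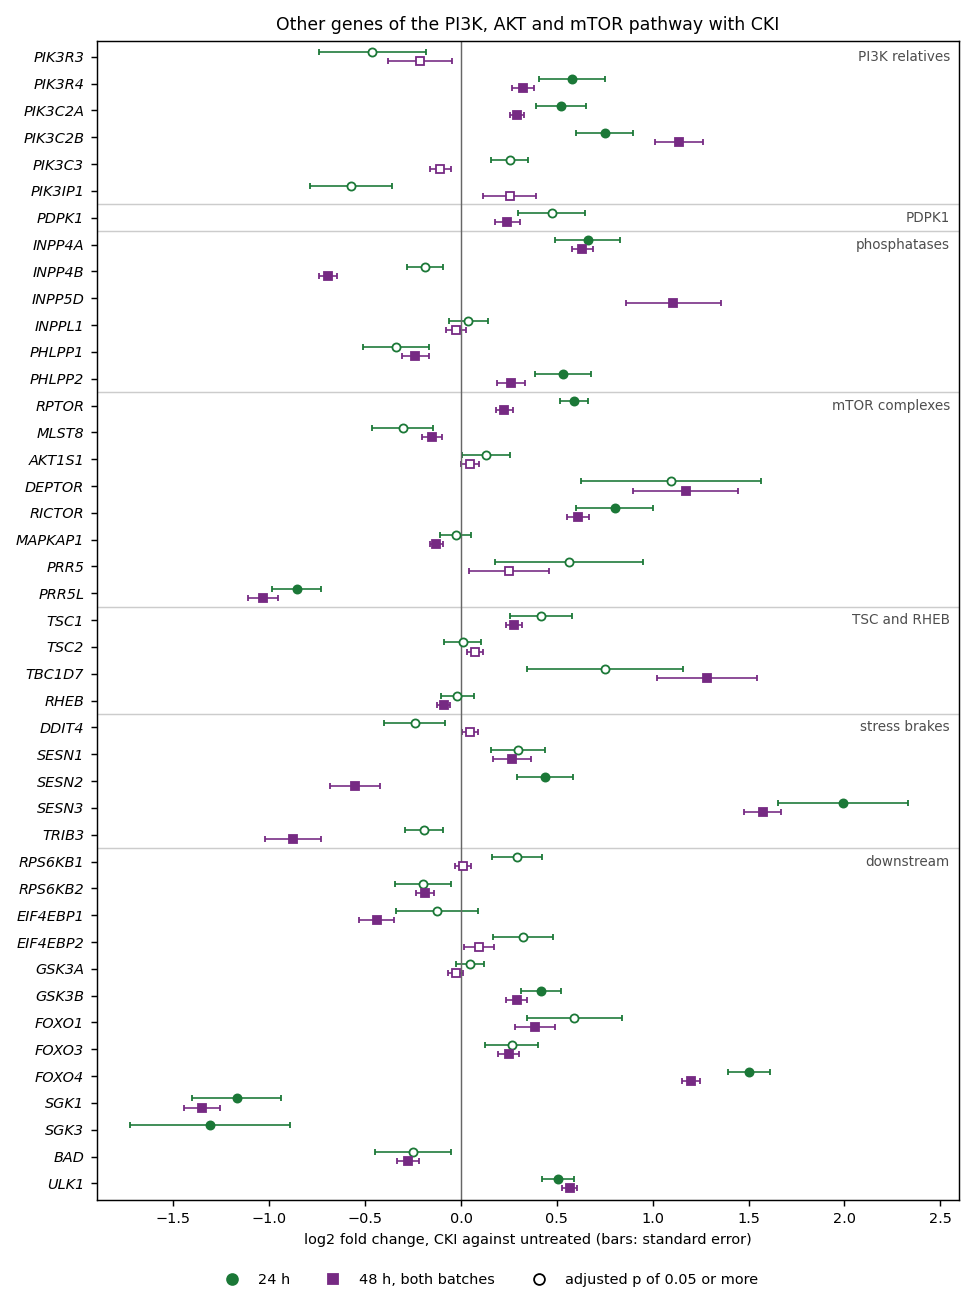
Log2 fold change with CKI (horizontal axis, bars for the standard error) of other pathway genes (vertical axis) at 24 h (circles) and at 48 h over both batches (squares); filled points passed an adjusted p of 0.05. SESN3 and FOXO4 lie farthest to the right at 24 h and SGK1 and SGK3 farthest to the left.

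With N_2 at 48 h 43 of 44 tested genes of the list (97.7%) were called, 25 higher and 18 lower, against 80.4% of all genes. Shares of all genes by direction are not given here, so this split and the direction of the phosphatases do not describe the list in particular. All 6 tested phosphatases were lower, INPP4A among them, at 24.4, 22.4 and 23.6 CPM against 38.4, 33.3 and 36.5 untreated (-0.62, SE 0.077, adjusted p = 1.54e-07). TRIB3, a stress-induced inhibitor of AKT, had 322, 316 and 303 CPM against 68.0, 72.4 and 77.4 (2.11, SE 0.065, adjusted p = 3.32e-18), and SESN2 97.8, 92.3 and 93.8 against 22.5, 22.2 and 21.9 (2.09, SE 0.067, adjusted p = 7.31e-18). With CKI at 48 h TRIB3 was lower instead (-0.88). TSC2, a subunit of the TSC brake, was at -0.81 with N_2. With N_Omt 37 of 44 genes (84.1%) were called, against 79.6% of all genes.

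The genes whose levels went most closely with each of the 8 over the 18 groups were found by Pearson's r of that centred mean log2 CPM, searched over 9782 genes that averaged 10 CPM or more. For PIK3CA they were HMGA2 (r = 0.943), TOMM20 (0.940), ZNF644 (0.937), BZW1 (0.935) and RAPH1 (0.928). The nearest was LMBRD1 for PIK3CB (0.901), GOLGA2P7 for PIK3CD (0.926), ZNF432 for PIK3R1 (0.958), TPGS2 for PIK3R2 (0.950), APEH for AKT1 (0.988), KEAP1 for AKT2 (0.966) and MAVS for MTOR (0.954). Among the 8 genes themselves r was 0.826 for AKT1 with MTOR, 0.636 for AKT1 with AKT2 and -0.62 for PIK3R1 with MTOR. The groups share controls, times and batches, and the GC trend was not removed, so these values are a description of likeness only.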

How the data were processed

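Strand-specific paired-end libraries of poly(A)-selected RNA were sequenced, and the authors deposited 1 table of raw read counts per gene symbol, with 1 column per library and no normalization. The submitters' processing notes name FastQC 0.11.4, Trim Galore 0.3.7, STAR 2.5.3a, Subread 1.5.2 with featureCounts, edgeR 3.22.3 and the build hg19. The strand setting and the treatment of reads that map to several places are not given in the sources used here, so overlapping genes may share counts. Samples were grouped by title, and 0 columns of no sample were used.

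Counts were analysed in R 4.3.3. For each comparison the libraries of its groups passed through filterByExpr and TMM scaling and were tested with edgeR 4.0.16 (quasi-likelihood test), with batch as a term where both batches entered. P-values were adjusted by the Benjamini-Hochberg method over all genes of the fit at a threshold of 0.05, and the SE is the size of the log2 fold change over the square root of F. Levels are CPM after TMM over all 54 libraries, with a prior count of 0.5 for log2 values. Total counts were 17673537 to 26138924, and 3798 of 27978 genes had no count. No library was a copy of another. P-values measure the spread between these libraries, whose separate origin is given only by the words of the series text.

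The 8 genes, the 48 other pathway genes and the tests were chosen with earlier results of these data known. All 8 genes are named. Pathway genes were named where they were called at 48 h of CKI with a log2 fold change of at least 0.5 in size and the same direction in each batch, where they were among the 3 largest in each direction at 24 h, or as nearest partners of the 8 (PDPK1, RICTOR, RPTOR, TSC1 and TSC2). Some genes of the list enter its counts but are not reported here by name. Transcript lengths, GC content (for 25817 of the genes) and overlaps came from GENCODE on GRCh38, matched by symbol. Alternatives were RLE size factors or library sizes alone, DESeq2 1.42.0, other filters, wider fits, a replicate block, fits that drop 1 library at a time and, added after the data were seen, removal of a GC trend and omission of the 3 libraries that stood apart. The scripts were tested on simulated counts. Same-numbered libraries did not deviate together: in 33 comparisons, 0 had every pair's correlation over 0.1 (range -0.471 to 0.256), so the numbers were not taken as pairs.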

Additional observations from a re-analysis of the deposited data

Results flagged for a closer look

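The effects of 2 treatments on single genes differed between 48 h and 24 h in batch 1, by edgeR's test of the difference of the differences from untreated cells, with adjusted p-values over all genes. With N_2 the effect at 48 h minus that at 24 h was -1.1 on the log2 scale for AKT1 (SE 0.116, adjusted p = 1.54e-05), -1.1 for PIK3R2 (SE 0.155, adjusted p = 0.000135), -0.89 for PIK3R1 (SE 0.242, adjusted p = 0.00982), 0.477 for PIK3CD (SE 0.144, adjusted p = 0.0169) and -0.576 for PIK3CB (SE 0.19, adjusted p = 0.0261). The PIK3CB difference was lost without any 1 of 7 of the 12 libraries (adjusted p 0.0528 to 0.073) and was -0.21 with library sizes alone (adjusted p = 0.337). That of PIK3R1 was -0.52 with library sizes alone (adjusted p = 0.0752). In that scaling the median difference of all genes moved to 0.34. Those of AKT1, PIK3R2 and PIK3CD kept their call without any 1 library.

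With MOO the difference was -0.397 for PIK3R2 (SE 0.109, adjusted p = 0.0169), -0.33 for AKT1 (SE 0.0768, adjusted p = 0.00638) and -0.263 for AKT2 (SE 0.0723, adjusted p = 0.0169). The PIK3R2 difference was lost without MOO replicate 2 at 24 h, untreated replicate 3 at 48 h, or MOO replicate 1 or 3 at 48 h (adjusted p 0.0503 to 0.0536). That of AKT2 was lost without untreated replicate 3 (adjusted p = 0.0528) or MOO replicate 1 at 48 h (adjusted p = 0.0514).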

How the results depend on the processing

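After 24 h of CKI 1 of the 8 genes was called, against 2 with RLE size factors, 4 with DESeq2, 2 with no filter beyond 1 count, 5 with all 54 libraries in 1 fit, 5 with the GC trend removed, 4 without the 3 libraries that stood apart, and 1 to 4 without any 1 library. Over all genes 5512 of 14245 were called, 5508 with RLE size factors, 5840 with DESeq2 and 6330 with the GC trend removed. They were 5397 of 20600 with no filter beyond 1 count, 7404 of 16072 with all 54 libraries and 7636 of 14410 without the libraries that stood apart. After 48 h in both batches 6 of the 8 were called, 3 with no batch term, and 6 to 7 without any 1 library. Over all genes 10264 of 14351 were called, and 7211 with no batch term. The counts that follow stand without the share of all genes, so they do not describe the 8 genes in particular. For macrozamin present against absent 5 calls in 4 comparisons became 10 with all 54 libraries, 8 with the GC trend removed, 9 with all libraries of the time and batch, and 4 to 8 without any 1 library. For the CKI effect between batches 0 became 1 with the GC trend removed, and 0 to 1 without any 1 library. Without any 1 library, mixtures had 62 to 70 calls against untreated cells and 48 to 56 against CKI, treatment effects over time 6 to 10, and untreated cells 6 to 10. With a replicate block the counts were 1 (CKI at 24 h), 6 (CKI at 48 h), 70 and 51 (mixtures against untreated cells and CKI), 5 (macrozamin), 0 (CKI between batches) and 8 (over time); the numbers are shared only by name, and the block could not be fitted for the untreated comparisons. Removing the GC trend turned the direction of these differences, each called in at least 1 of both fits: against untreated cells PIK3CA to 0.21 (N_2 at 48 h), -0.069 (N_Nme) and -0.072 (N_Tri) and PIK3R2 to 0.11 (N_Nme) and 0.048 (N_Tri); against CKI PIK3R2 to 0.035 (MOO at 48 h), 0.088 (N_Mac), 0.21 (N_Nme) and 0.16 (N_Tri), PIK3CD to 0.14 (N_Nme) and 0.23 (N_Tri), PIK3R1 to -0.26 (N_Nme) and -0.13 (N_Tri) and PIK3CB to -0.31 (N_Tri); and PIK3CB between untreated batches to -0.093. AKT2 with N_3 against CKI at 48 h was -0.16 without N_3 replicate 2 and up to 0.097 without others. INPPL1 with CKI was 0.12 in batch 2 alone, and EIF4EBP2 -0.17 in batch 1 alone. Of the other values of the 8 genes with 1 library left out, 2109 kept their call or lack of one, 97 lost and 49 gained a call. Values that changed sign with no call in either fit count among those kept, here and in the numbers that follow. With all 54 libraries in 1 fit 258 were kept, 36 lost and 26 gained a call. The numbers were 223, 14 and 11 with all libraries of the time and batch, and 292, 14 and 14 with library sizes alone. They were 309, 3 and 8 with DESeq2, and 262, 12 and 31 with the GC trend removed. The cause was not tested. Counts over all genes moved too: for OO against CKI at 24 h from 330 to 3964 with all 54 libraries, 1123 with DESeq2, 0 with a replicate block or without CKI replicate 2, and 1 without OO replicate 3. PIK3R1 had as few as 132 counts in a library, which limits its precision.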
